A study of Mus musculus with 16 samples.

Results

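The genes described here are 5 mouse scavenger receptor genes: the atypical chemokine receptors Ackr1, Ackr2, Ackr3 and Ackr4, and Gpr182. They were chosen by name as chemokine scavenger receptors, with their levels and knockout changes in these libraries already known, so those levels and changes are given as a description and carry no test. All 5 were found among the 52636 genes of the counts table, and all 5 passed the filter on low counts that left 19646 genes. Gene-level read counts came from 16 poly(A) RNA sequencing libraries of endothelial cells of liver, lung and heart. The cells had been marked by an antibody to VE-cadherin injected into the living mouse and then sorted as live, CD45-negative cells with CD31 and VE-cadherin on their surface.

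The 6 groups were libraries labelled Erg and Fli1 double knockout and libraries labelled Wild Type, called controls here, from each of the 3 tissues. Liver and lung had 3 knockout-labelled and 3 control libraries, and heart had 2 of each. All mice are described as treated with tamoxifen, which induces the deletion, and cells were taken on day 10 after it. The labels do not give the Cre line, the part of either gene that was deleted, the age of the mice or whether each library came from its own animal, so p-values measure the spread between these libraries only. Erg and Fli1 encode ETS transcription factors of endothelial cells. Counts over the whole Erg gene averaged 144.2 ± 18.57 CPM in knockout-labelled and 356.3 ± 17.53 CPM in control liver libraries (SD, n = 3 each), 184.8 ± 34.26 and 265.6 ± 8.969 CPM in lung, and 156.4 ± 1.932 and 216.4 ± 17.93 CPM in heart (n = 2 each). Erg fell in liver (adjusted p = 1.54e-05) and in lung (adjusted p = 0.0231), and did not pass in heart (adjusted p = 0.0538). The lung call for Erg was lost in a fit of lung alone and without lung KO replicate 2 or 3 or any 1 of the 3 lung control libraries, with adjusted p up to 0.0937. Fli1 went against the label: it had 151.9 ± 31.99 CPM in knockout-labelled and 116.6 ± 5.408 CPM in control liver libraries (adjusted p = 0.1), rose to 124.2 ± 22.56 CPM in lung against 77.03 ± 0.7146 CPM in controls (adjusted p = 0.0131), and had 219.6 ± 17.92 and 217 ± 27.15 CPM in heart (adjusted p = 0.978). The lung call for Fli1 was lost without lung KO replicate 3 or lung control replicate 3 (adjusted p up to 0.0533). Reads from any part of either gene that was not deleted count towards these values. Every direction below is therefore one of libraries labelled knockout against libraries labelled Wild Type.

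The libraries held between 30226340 and 41449054 counts. Each level is a CPM value, the count scaled to the TMM-adjusted library size, and where genes are compared with each other they are CPM per kilobase of exon. Log2 fold changes are knockout-labelled over control. Their standard error (SE) is an approximation, worked back from the log2 value and the F statistic of the edgeR test. For the receptors it is given as a description only. Within groups, libraries correlated at 0.964 to 0.986 over genes, and liver KO replicate 3 was least like its group (0.968 and 0.964, against 0.982 between the other two). By Xist and Y-linked genes, replicate 2 of each liver and lung group and of the knockout-labelled heart group was male and all other libraries, both heart controls included, were female. So 5 of the 6 groups held libraries of at least 2 mice; whether the female libraries of a group came from separate mice is not given, and their spread may be technical. The summed level of 10 pan-endothelial markers, including Cdh5 (VE-cadherin) and Pecam1 (CD31), was lower in every knockout-labelled library than in every control of its tissue, at 12800 to 18700 and 19300 to 21300 CPM in liver, 11900 to 15300 and 18800 to 19200 CPM in lung, and 9780 to 11400 and 15400 to 15800 CPM in heart. None of the 10 was at 0 in any group. Of these 10 markers 4 fell in liver, 4 fell and 1 rose in lung, and 5 fell in heart. Cdh5 and Pecam1 themselves did not pass in liver (log2 -0.09 and -0.16) or in lung (log2 -0.27 and -0.59). The part of the difference in this summed level in the receptor levels was not tested.

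Chemokines are small secreted proteins that guide leukocytes along gradients. Most chemokine receptors signal through G proteins, whereas atypical receptors bind chemokines without classical G protein signalling and, in most cases, internalise and degrade them or carry them across the cell. In endothelium they shape how much chemokine is displayed at the vessel wall. ACKR1 binds many inflammatory CC and CXC chemokines and is known from venules and red cells, ACKR2 degrades inflammatory CC chemokines and is known from lymphatic vessels, ACKR3 takes up CXCL12 and CXCL11, ACKR4 takes up CCL19, CCL21 and CCL25, and GPR182, known from sinusoidal and lymphatic endothelium, binds CXCL10, CXCL12 and CXCL13 among others.

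RefSeq promoter windows of 3 of the genes are shown because Ackr4 and Ackr1 were both lower in every knockout-labelled liver library and Ackr3 was higher in every one. ETS factors such as ERG and FLI1 bind DNA around a GGAA core, so capitals mark each GGAA and its reverse complement TTCC. Each window runs from 250 bases before to 50 bases after the RefSeq gene start in GRCm38.p6, 5′ to 3′ on the strand of the gene: chr9:104126594-104126893 on the minus strand for Ackr4, chr1:173333454-173333753 on the minus strand for Ackr1 and chr1:90203730-90204029 on the plus strand for Ackr3. GENCODE M21, which gave the gene positions below, starts Ackr4 further upstream, at 104126933, so the Ackr4 window lies wholly inside that gene span. It starts Ackr1 at 173333750, so all but the outermost bases of the Ackr1 window lie inside that gene span. The Ackr1 window also lies inside the span of Cadm3 (173333258-173367695).
Ackr4 promoter: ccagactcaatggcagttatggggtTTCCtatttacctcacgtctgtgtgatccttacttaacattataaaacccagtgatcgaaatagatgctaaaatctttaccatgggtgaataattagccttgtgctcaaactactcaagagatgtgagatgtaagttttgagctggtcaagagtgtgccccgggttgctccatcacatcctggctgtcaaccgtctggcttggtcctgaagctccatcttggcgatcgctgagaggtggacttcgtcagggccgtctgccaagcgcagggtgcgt
Ackr1 promoter: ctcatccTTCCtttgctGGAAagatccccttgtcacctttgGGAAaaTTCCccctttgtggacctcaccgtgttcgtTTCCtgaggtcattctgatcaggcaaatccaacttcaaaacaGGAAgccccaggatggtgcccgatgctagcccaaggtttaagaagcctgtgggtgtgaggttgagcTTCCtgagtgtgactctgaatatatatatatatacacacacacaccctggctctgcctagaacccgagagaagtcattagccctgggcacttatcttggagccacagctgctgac
Ackr3 promoter: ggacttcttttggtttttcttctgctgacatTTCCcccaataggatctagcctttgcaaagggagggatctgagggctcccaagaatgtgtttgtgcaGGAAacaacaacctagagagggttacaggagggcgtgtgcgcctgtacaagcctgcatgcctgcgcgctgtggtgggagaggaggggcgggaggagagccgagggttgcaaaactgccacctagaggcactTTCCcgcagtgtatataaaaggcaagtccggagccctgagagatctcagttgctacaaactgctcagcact

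The GGAA core occurred once in the window of Ackr4, at -225 from the RefSeq start, against 7 matches for Ackr1, 3 for Ackr3 and 6 for Ackr2. Both strands were searched. Of the 32851 RefSeq windows of this length, 96% held the core, with a median of 3 matches. The longer form AGGAAG, which contains the core, occurred 3 times for Ackr1 and 1 time for Ackr2 and was not in the windows of Ackr3 and Ackr4. It occurred in 35.4% of all windows. CGGAAG was in none of the 4 windows and in 16.9% of all. A match says only that these letters are present in a window; binding was not measured. The RefSeq table had windows for 4 of the 5 genes; that of Gpr182 was not analysed here.

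The receptors differed in the tissue where they were highest. Per kilobase, Gpr182 was the 86th highest of 19622 genes in knockout-labelled liver and the 26th in control liver, at 310.2 ± 71 CPM per kilobase in knockout-labelled and 788.8 ± 39.49 CPM per kilobase in control libraries. Ackr3 led the family in heart, at 48.46 ± 8.325 and 74.83 ± 4.156 CPM per kilobase in knockout-labelled and control libraries. In lung Ackr2 led in knockout-labelled libraries, at 93.77 ± 9.967 CPM per kilobase, whereas Gpr182 and Ackr3 were at 65.29 ± 12.27 and 64.43 ± 14.62 CPM per kilobase in controls and overlapped there. Ackr1 and Ackr4 were highest in control liver, at means of 27.35 and 21.08 CPM per kilobase, where they ranked 1874th and 2464th and stood above Ackr3 (3.947 CPM per kilobase). In the other groups their means were at most 4.43 and 7.176 CPM per kilobase.

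**Figure D1:**
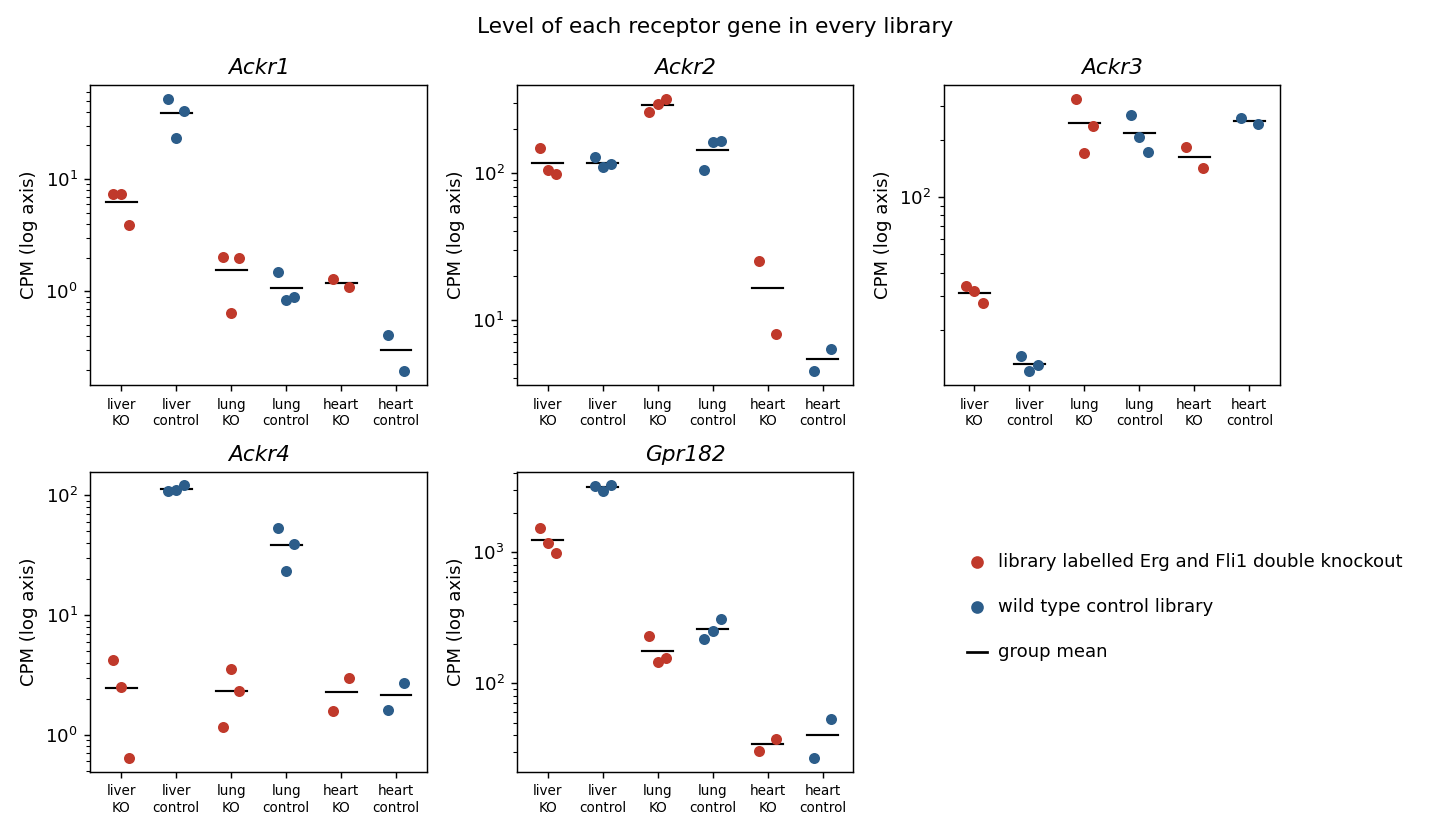
Level of each receptor gene in every library, in CPM on a log axis, with knockout-labelled libraries in red left of their controls in blue and the group mean as a line. Ackr4 sits at 4.25 CPM or less in every knockout-labelled liver library and at 108.2 CPM or more in every control one, while in heart both groups lie between 1.59 and 2.99 CPM.

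In liver, 3 of the 5 receptor genes were lower in every knockout-labelled library than in every control, 1 was higher and 1 overlapped. The 3 lower were Ackr4, Ackr1 and Gpr182, the higher was Ackr3, and Ackr2 overlapped. Among all 19646 genes tested in liver, 18.0% lay wholly above and 19.0% wholly below the controls. In lung, Ackr2 was higher and Ackr4 lower without overlap and the other 3 overlapped, where 13.3% and 16.1% of all genes lay wholly above and wholly below. In heart, with 2 libraries a group, Ackr1 and Ackr2 were higher and Ackr3 lower without overlap, where 30.0% and 29.0% of all genes did so. The genes were chosen with these receptor levels already known, so nothing is read from the counts. Since replicate 2 of both groups was male in liver and lung, groups that do not overlap there are also apart among female libraries alone and between the males. These are bulk libraries, in which fewer cells of a type and less RNA per cell cannot be told apart.

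**Figure D2:**
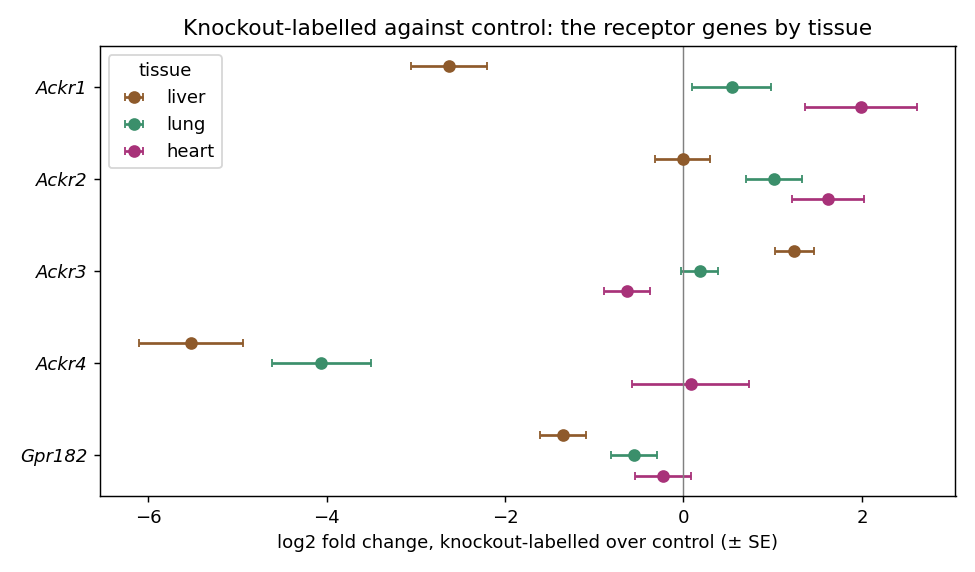
Log2 fold change of each receptor gene, knockout-labelled over control, in liver, lung and heart, with bars of 1 SE. Ackr4 stands at -5.52 in liver and -4.06 in lung but at 0.08 in heart, and Ackr1 and Ackr3 lie on opposite sides of 0 in liver and heart.

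Ackr4 (ENSMUSG00000079355, chr9:104084157-104126933, minus strand, GRCm38) encodes the scavenger of CCL19, CCL21 and CCL25. In liver it had 4.25, 2.49 and 0.638 CPM in knockout-labelled libraries and 108.2, 110.5 and 121.4 CPM in controls, 2.17% of the control mean. The 3 controls were close together, and the highest knockout-labelled library was far below the lowest of them. On the log2 scale the liver difference was -5.52 (SE 0.586), and only 5 of the 19646 genes had a lower value. In lung it had 1.16, 3.53 and 2.32 CPM in knockout-labelled libraries and 53.7, 23.16 and 38.96 CPM in controls, 6.06% of the control mean (log2 -4.06, SE 0.553), and 52 genes had a lower value. Controls varied more in lung than in liver, and all lay above all knockout-labelled libraries. Heart differed from both: Ackr4 had 1.59 and 2.99 CPM in knockout-labelled and 1.60 and 2.72 CPM in control libraries, so the groups overlapped (log2 0.08, SE 0.654). The level order was control liver, then control lung, then knockout-labelled liver, knockout-labelled lung and both heart groups, which overlapped one another.

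Ackr4 and Acad11, an acyl-CoA dehydrogenase gene on the opposite strand, share 479 exonic bases, and the strand setting of the counting is unstated. Acad11 had 12.32 CPM in knockout-labelled and 23.83 CPM in control liver libraries and fell by 0.95 on the log2 scale (adjusted p = 0.000394). In lung it had 8.593 CPM in knockout-labelled and 12.83 CPM in control libraries and fell by 0.58 (adjusted p = 0.0232), a call lost with no filter on low counts and without lung KO replicate 1 or 3 or lung control replicate 1 or 3 (adjusted p up to 0.0881). In heart Acad11 had 6.361 CPM in knockout-labelled and 9.102 CPM in control libraries and did not pass (adjusted p = 0.0559). The share of Ackr4 reads that come from the shared bases was not measured.

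Gpr182 (ENSMUSG00000058396, chr10:127747276-127751732, minus strand) encodes the scavenger of sinusoidal endothelium. In liver it had 1530, 1174 and 975.8 CPM in knockout-labelled libraries and 3187, 2940 and 3229 CPM in controls. The highest knockout-labelled library was far below the lowest control, and the knockout-labelled mean was 39.3% of the control mean (log2 -1.35, SE 0.262). Of all genes tested, 1310 had a lower log2 value in liver. In lung it had 230.3, 144.6 and 155.5 CPM in knockout-labelled libraries and 215.4, 248.2 and 310.9 CPM in controls, and lung KO replicate 1 lay above 1 control (log2 -0.55, SE 0.258). Heart libraries had 30.46 and 37.85 CPM when knockout-labelled and 26.81 and 53.37 CPM in controls, with the knockout-labelled pair inside the span of the controls (log2 -0.23, SE 0.318). Its levels ran from control liver through knockout-labelled liver and both lung groups, which overlapped, down to both heart groups, which overlapped too.

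The 74 exonic bases that Gpr182 shares with Zbtb39, a zinc finger gene on the opposite strand, put the same limit on its counts. Zbtb39 had 80.13 CPM in knockout-labelled and 149.6 CPM in control liver libraries and fell by 0.90 on the log2 scale (adjusted p = 0.00124). In lung Zbtb39 had 38.62 and 40.49 CPM in knockout-labelled and control libraries (adjusted p = 0.855), and in heart 27.73 and 41.3 CPM (adjusted p = 0.0536).

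Ackr1 (ENSMUSG00000037872, chr1:173331886-173333750, minus strand) encodes the Duffy antigen receptor of venules and red cells. In liver it had 7.41, 7.37 and 3.89 CPM in knockout-labelled libraries and 52.16, 23.08 and 40.04 CPM in controls, 16.2% of the control mean. Controls spread more than 2-fold, and the lowest of them was still above every knockout-labelled library (log2 -2.63, SE 0.423; 301 genes had a lower value). In lung Ackr1 had 2.04, 0.644 and 1.97 CPM in knockout-labelled libraries and 1.48, 0.831 and 0.892 CPM in controls, which overlapped (log2 0.54, SE 0.442). Heart held few reads of it: 53 and 43 counts in knockout-labelled libraries, or 1.30 and 1.10 CPM, against 14 and 7 counts in controls, or 0.406 and 0.194 CPM (log2 1.99, SE 0.623). Both heart knockout-labelled libraries were above both controls at this low level. Without heart control replicate 1 the heart value was 2.62. Knockout-labelled liver stood below control liver and above every other group, and control heart was the lowest.

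Cadm3, a cell adhesion gene on the same strand as Ackr1, shares 361 exonic bases with it, so its reads cannot be told from those of Ackr1 there even with stranded counting. It had 37.05 CPM in knockout-labelled and 13.65 CPM in control liver libraries and rose by 1.44 on the log2 scale (adjusted p = 0.00377), opposite in direction to Ackr1. In lung Cadm3 had 3.671 CPM in knockout-labelled and 2.329 CPM in control libraries (log2 0.66, adjusted p = 0.228). In heart it had 5.076 and 3.558 CPM (log2 0.51, adjusted p = 0.37), and both knockout-labelled libraries were above both controls. Cadm3 thus had a higher CPM than Ackr1 in heart, where Ackr1 averaged 1.199 and 0.3001 CPM. Per kilobase the mean of Cadm3 was above that of Ackr1 in control heart, at 0.4909 against 0.2136 CPM per kilobase. In knockout-labelled heart it was below, at 0.7003 against 0.8531 CPM per kilobase. The share of Ackr1 reads that come from the shared bases was not measured.

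**Figure D3:**
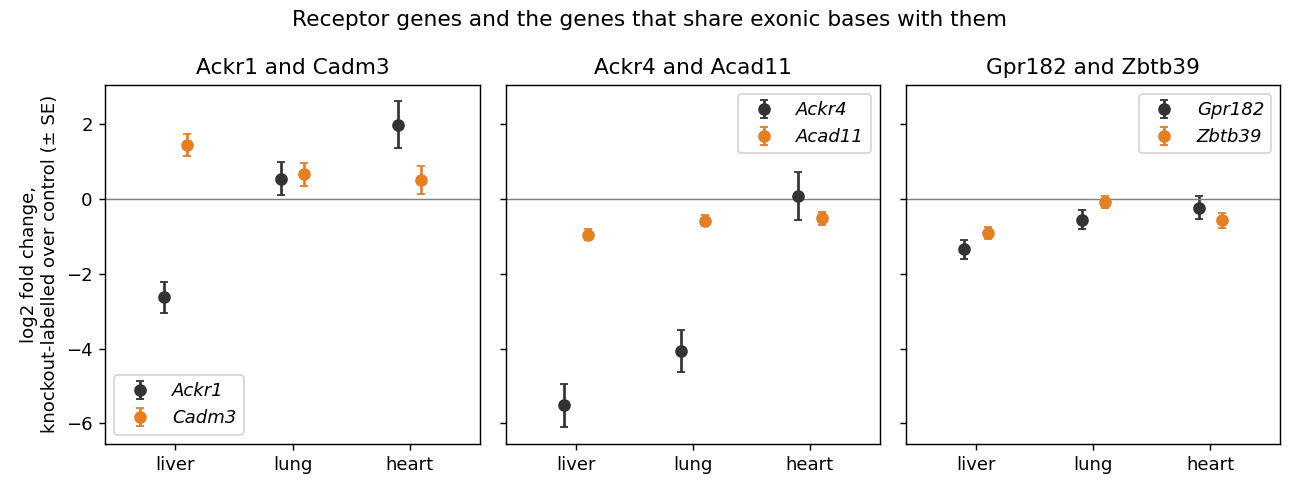
Log2 fold change, knockout-labelled over control, of 3 receptor genes (black) and of the gene that shares exonic bases with each (orange), by tissue, with bars of 1 SE. Ackr1 and Cadm3 lie on opposite sides of 0 in liver, at -2.63 and 1.44, and Ackr4 lies far below Acad11 in liver and lung.

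Ackr3 (ENSMUSG00000044337, chr1:90203980-90216751, plus strand) encodes the CXCL12 and CXCL11 scavenger. In liver it had 33.9, 32.13 and 27.8 CPM in knockout-labelled libraries and 14.52, 12.09 and 13.03 CPM in controls. Replicates lay close together in both groups and did not overlap (log2 1.24, SE 0.218). Lung libraries had 328.7, 169.1 and 235.3 CPM when knockout-labelled and 268.8, 205.9 and 172.4 CPM in controls (log2 0.18, SE 0.21). The controls all lay inside the wider range of the knockout-labelled libraries, and lung KO replicate 1 was above every control. In heart Ackr3 had 181.9 and 142.5 CPM in knockout-labelled and 260.4 and 240.7 CPM in control libraries, with both knockout-labelled libraries lower (log2 -0.63, SE 0.258). Control heart and both lung groups overlapped at the top of the order, knockout-labelled heart overlapped knockout-labelled and control lung, and both liver groups lay below them, the controls lowest.

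Ackr2 (ENSMUSG00000044534, chr9:121898355-121911074, plus strand) encodes the scavenger of inflammatory CC chemokines. In lung it had 260.3, 297.1 and 322.2 CPM in knockout-labelled libraries and 105, 162.9 and 164.5 CPM in controls. All 3 knockout-labelled libraries were above all controls (log2 1.02, SE 0.314; 1427 genes had a higher value), and knockout-labelled lung stood above every other group. Liver did not differ in this way, with 149.3, 104.5 and 97.94 CPM in knockout-labelled libraries around the 129.7, 109.6 and 114.6 CPM of the controls (log2 -0.01, SE 0.312). In heart it had 25.03 and 7.93 CPM in knockout-labelled and 4.44 and 6.29 CPM in control libraries (log2 1.62, SE 0.408). That heart value rests largely on 1 library: without heart KO replicate 1 it was 0.59. No gene of the annotation shares exonic bases with Ackr2 or Ackr3.

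Set side by side per kilobase, the order of the family differed between the labels in lung. Ackr2 made up a mean 44.8% of the summed CPM per kilobase of the 5 genes in knockout-labelled and 25% in control lung, and Gpr182 20.8% and 35.4%. Ackr4 made up 0.216% in knockout-labelled and 3.91% in control lung, and 0.117% and 2.4% in liver. In liver Gpr182 was by far the largest in both, at 85.7% of the sum in knockout-labelled and 89.8% in control libraries, and in heart Ackr3 was, at 76.1% and 85.8%. The sum itself was 362 ± 82 CPM per kilobase in knockout-labelled and 878.9 ± 51.66 in control liver, 213 ± 29.08 and 183.8 ± 5.995 in lung, and 63.65 ± 10.78 and 87.3 ± 1.053 in heart. In liver and heart the ranges of this sum did not overlap. The other chemokine receptor genes were taken as a list of 19, of which 18 are conventional and 1 is Ccrl2, which does not signal by itself. The summed CPM per kilobase of the 18 conventional genes averaged 10.9 in knockout-labelled and 7.97 in control liver, 5.46 and 15.3 in lung, and 21.8 and 21.6 in heart. With Ccrl2 the means were 49.1 and 22.5 in liver, 42.9 and 59.9 in lung, and 40.1 and 34.9 in heart, so Ccrl2 made up most of the sum in liver and lung.

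**Figure D4:**
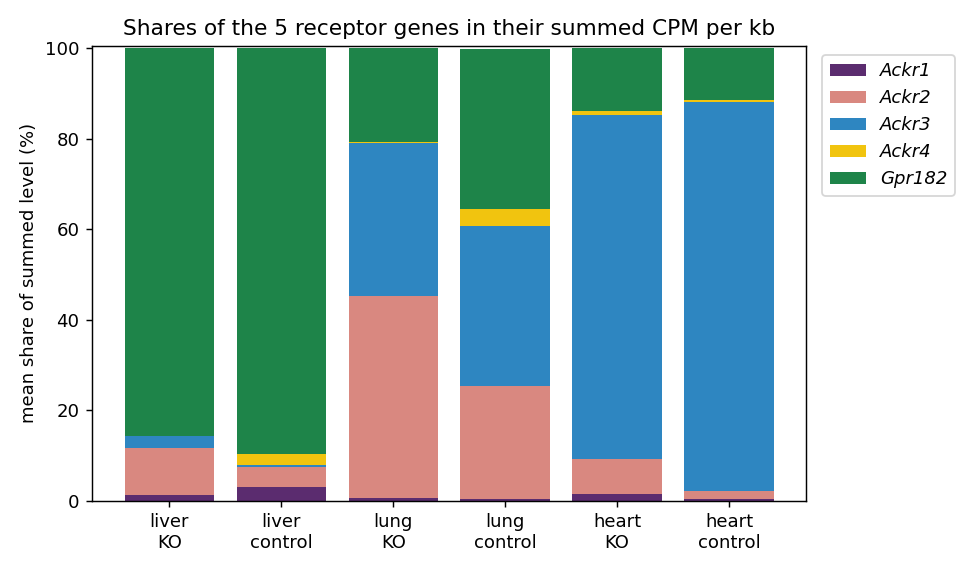
Mean share of each receptor gene in the summed CPM per kilobase of the 5 genes, in percent, for each tissue, with knockout-labelled libraries left of controls. Gpr182 fills most of the liver bars and Ackr3 most of the heart bars, and in lung the Ackr2 part is 44.8% in knockout-labelled and 25% in control libraries.

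The sort could hold several kinds of endothelial cell and traces of other cells, and their markers differed between groups beside these receptor levels. In liver, 6 of 12 sinusoidal markers fell and none rose, and their summed level was 12900 to 19800 CPM in knockout-labelled and 33600 to 35000 CPM in control libraries. Stab2, the hyaluronan scavenger receptor of sinusoids, had 4541 ± 762.6 CPM in knockout-labelled and 4741 ± 239.2 CPM in control liver libraries (adjusted p = 0.961). Of 9 lymphatic markers measured, 3 fell and 1 rose in liver, with a median log2 of 1.07. Their summed level was 1690 to 2820 CPM in knockout-labelled and 4570 to 5500 CPM in control libraries. Most of that sum came from the 3 that fell. Flt4 averaged 1428 CPM in knockout-labelled and 3239 CPM in control liver libraries. Itga9 averaged 391.2 and 844.2 CPM, and Lyve1 201.8 and 826.7 CPM. The other lymphatic markers had log2 values of 0.87 to 2.56 in liver, and only Foxc2 among them passed. Lyve1 is on both lists. The lymphatic regulator Prox1 had 14.01 ± 10.11 CPM in knockout-labelled and 6.688 ± 1.898 CPM in control liver libraries (adjusted p = 0.148) and rose to 3.116 ± 1.269 CPM in lung, against 0.6292 ± 0.0573 CPM in controls (adjusted p = 0.0176). In lung, where Ackr4 was lower, 1 lymphatic marker rose and none fell, and the lymphatic sum was 821 to 2760 CPM in knockout-labelled and 1200 to 1740 CPM in control libraries; in heart 1 rose and none fell, at 444 to 597 and 367 to 390 CPM. Of 12 venous markers, 1 rose and 3 fell in liver, 2 rose and 1 fell in lung, and 5 rose and none fell in heart. The venous sums in knockout-labelled and control libraries were 7980 to 11100 and 9220 to 11500 CPM in liver, 4770 to 6590 and 5600 to 6660 CPM in lung, and 2730 to 2940 and 2090 to 2760 CPM in heart. Of the sinusoidal markers 2 rose and 1 fell in lung, with sums of 796 to 2700 CPM in knockout-labelled and 1500 to 2050 CPM in control libraries. In heart 4 rose and 1 fell, while the sum was lower in knockout-labelled libraries, at 349 to 356 CPM, against 665 to 689 CPM in controls.

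Markers of cells outside the gate moved as well. Lung epithelial markers, 8 genes that include the surfactant gene Sftpc, summed to 335 to 561 CPM in knockout-labelled and 1970 to 3190 CPM in control lung libraries, where 4 fell, and to 104 to 157 CPM in knockout-labelled and 5.19 to 6.35 CPM in control heart libraries, where 5 rose. In liver 2 of the 8 fell, at 18.7 to 58.6 CPM in knockout-labelled and 21 to 24.6 CPM in control libraries. Leukocyte markers, 16 genes of which 14 were tested, summed to 146 to 253 CPM in knockout-labelled and 14.1 to 42.9 CPM in control heart libraries, where 6 rose and Cd3e was at 0 in the controls. In lung they summed to 97.3 to 219 CPM in knockout-labelled and 478 to 563 CPM in control libraries, where 1 fell and 13 did not pass. The 1 that fell was Lyz2, at 100 CPM in knockout-labelled and 472.4 CPM in control lung libraries. Lyz2 made up most of the control sum there, and the median log2 of the tested leukocyte markers in lung was -0.39. In liver leukocyte markers summed to 73.8 to 213 CPM in knockout-labelled and 122 to 340 CPM in control libraries, where 2 rose. Red cells express Ackr1, and 10 erythroid markers, 8 of them tested, summed to 19.7 to 185 CPM in knockout-labelled and 34.6 to 67.6 CPM in control liver libraries, 74.5 to 458 and 31.2 to 42.1 CPM in lung, and 73.6 to 115 and 69.8 to 160 CPM in heart, where Rhag was at 0 in controls. None of the 8 passed in any tissue by edgeR, and 1 in liver, 5 in lung and 0 in heart had an unadjusted p under 0.05. Of 8 platelet markers 3 rose in liver, 3 in lung and 2 in heart, with sums of 178 to 262 CPM in knockout-labelled and 35.2 to 47.4 CPM in control liver, 65.6 to 102 and 29.7 to 31.8 CPM in lung, and 58.3 to 62.5 and 15 to 17.8 CPM in heart. Itga2b and Pf4 rose in each tissue. Most of the knockout-labelled liver sum was theirs, at 153.8 and 50.84 CPM, against 27.75 and 3.742 CPM in controls. Gp1ba went the other way in liver, at 3.784 CPM in knockout-labelled and 5.985 CPM in control libraries, and did not pass. The median log2 of the 8 platelet markers was 0.94 in liver, 1.33 in lung and -0.01 in heart. Of 14 mesenchymal markers, 1 rose and 1 fell in liver, 1 rose in lung and none passed in heart, where 3 had an unadjusted p under 0.05. Of 8 hepatocyte markers 3 fell in liver and none passed in lung or heart (1 with an unadjusted p under 0.05 in each), and of 8 cardiomyocyte markers 1 rose in liver, 1 rose in lung and 4 fell in heart. The part of any of these cells in the receptor levels was not tested.

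Among the chemokines that these receptors and others bind, heart stood apart. The list held 37 ligand genes, of which 32 were tested, and Ccl19 and Ccl21a, both ligands of ACKR4, were not analysed here. In heart 15 ligands rose, 2 fell and 15 did not pass, with a median log2 of 2.75, where the median over all genes was 0.01. With Ccl20 and Ccl22, which had no count in control heart, put at a bound of 3 counts over the group, that median was 2.33. Across all genes 10.2% rose and 9.09% fell in heart. Liver had 6 rises, 2 falls and 24 ligands that passed in neither direction (median log2 -0.10, all genes 0.02; 9.54% of all genes rose and 9.87% fell), and in lung 1 rose, 1 fell and 30 did not pass (median log2 -0.01, all genes -0.02; 4.35% rose and 4.11% fell). In either direction 19.4%, 8.46% and 19.3% of all genes passed in liver, lung and heart. The heart count of 17 was 10 without heart control replicate 1 or 2. The liver count of 8 was 5 with limma voom and without liver KO replicate 3, and 3 in a fit of liver alone and without liver control replicate 2 or 3. The lung count of 2 was 4 with DESeq2, limma voom, a fit of lung alone and without liver KO replicate 3. It was 1 without any single lung library other than lung KO replicate 1, any single liver control, liver KO replicate 1 or heart KO replicate 2. The leukocyte, lung epithelial and platelet sums above moved in the same libraries, and their part was not tested.

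**Figure D5:**
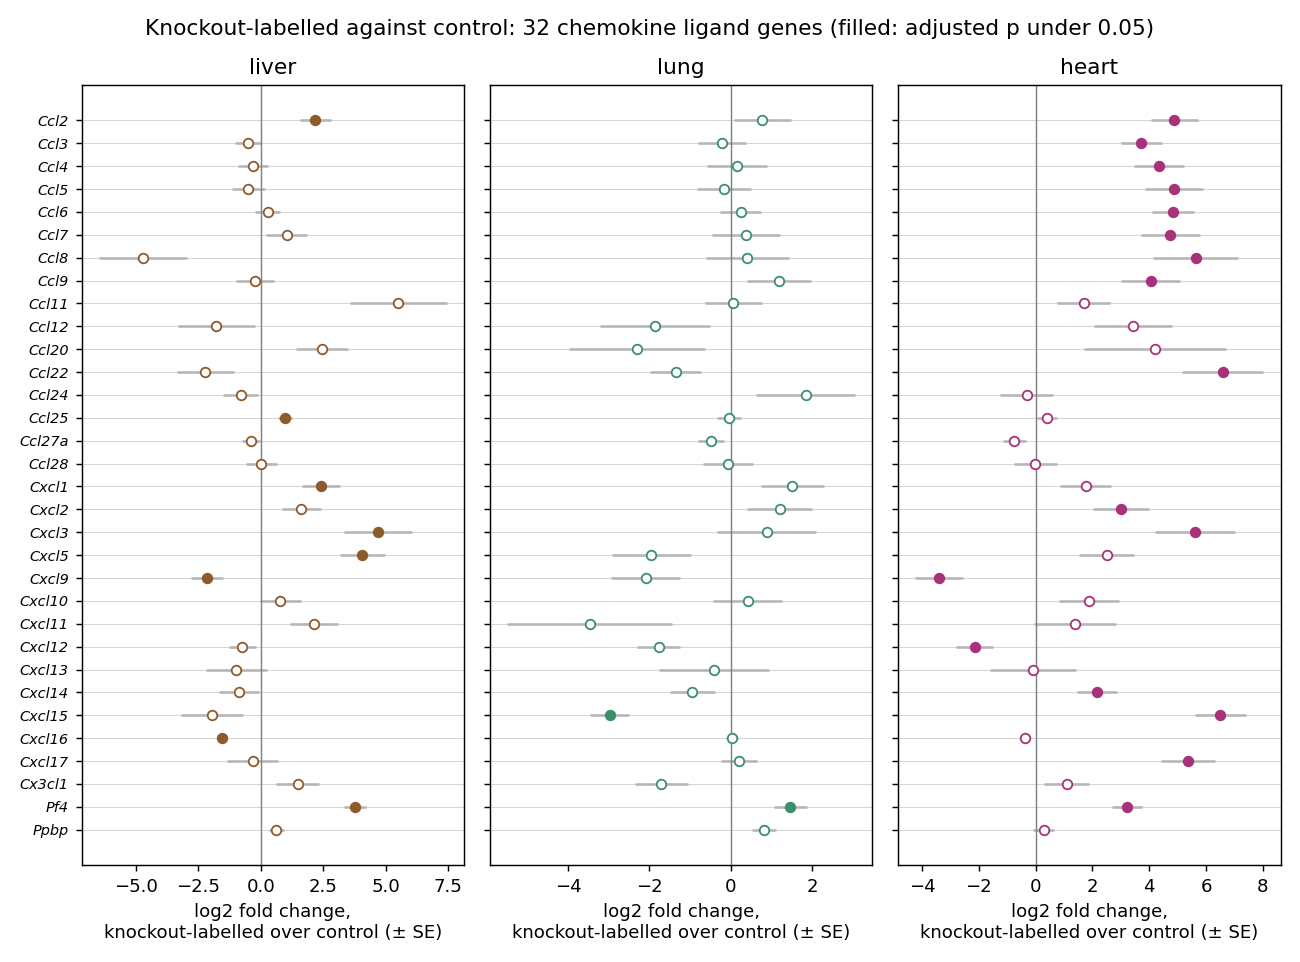
Log2 fold change, knockout-labelled over control, of the 32 chemokine ligand genes tested, in liver, lung and heart, with bars of 1 SE and filled points where the adjusted p is under 0.05; each panel has its own scale. Most filled points are in heart, where 15 genes rose and Cxcl9 and Cxcl12 fell; Ccl20 and Ccl22 in heart and Ccl11 in liver had no count in controls, so their fitted values depend on a prior count.

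Cxcl12, the ligand of ACKR3, GPR182 and the conventional receptor CXCR4, fell in heart. It had 613.7 and 923 CPM in knockout-labelled and 3295 and 3496 CPM in control libraries there (log2 -2.14, SE 0.654, adjusted p = 0.0348), and Ackr3 was lower in the same libraries. Adjusted p for Cxcl12 in heart was 0.0855 to 0.209 without any 1 of the 4 heart libraries. Lung had 316.2, 384.8 and 92.47 CPM of Cxcl12 in knockout-labelled and 995.2, 712 and 991.3 CPM in control libraries. The lung groups did not overlap, and the difference did not pass (log2 -1.77, SE 0.527, adjusted p = 0.0547), whereas it did with no filter on low counts, DESeq2, limma voom and a fit of lung alone (adjusted p 0.006 to 0.0444) and without liver KO replicate 2 or 3 (adjusted p = 0.0343 and 0.0227). In liver Cxcl12 was low, at 7.511 CPM in knockout-labelled and 12.46 CPM in control libraries (adjusted p = 0.374). Cxcl10, a GPR182 ligand induced by interferon, averaged 229.4 CPM in knockout-labelled and 133.6 CPM in control liver libraries (adjusted p = 0.552), 8.932 and 6.721 CPM in lung (adjusted p = 0.836), and 19.35 and 5.25 CPM in heart (adjusted p = 0.243).

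Ccl2, the monocyte chemokine bound by ACKR1 and ACKR2, had 186.2 and 89.35 CPM in knockout-labelled and 4.38 and 4.91 CPM in control heart libraries, and rose (log2 4.89, SE 0.834, adjusted p = 0.00135). In liver it had 12.7, 4.15 and 32.74 CPM in knockout-labelled and 4.35, 2.15 and 4.37 CPM in control libraries, and rose by the test although the groups overlapped (log2 2.18, adjusted p = 0.0237). That call was lost with limma voom, in a fit of liver alone, and without liver KO replicate 3 or any 1 of the 3 liver controls (adjusted p 0.0534 to 0.14). Lung had 1.565 CPM in knockout-labelled and 0.9074 CPM in control libraries (adjusted p = 0.568). Ccl25, the ACKR4 ligand that was measured, averaged 5.389 CPM in knockout-labelled and 2.728 CPM in control liver libraries and rose (log2 0.98, adjusted p = 0.0299), a call lost with no filter on low counts, in a fit of liver alone and without liver KO replicate 2 or liver control replicate 2 or 3 (adjusted p 0.0571 to 0.157). In lung it had 2.513 and 2.604 CPM in knockout-labelled and control libraries (adjusted p = 0.953), and in heart 3.873 and 2.941 CPM (adjusted p = 0.476).

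Other ligands with the smallest adjusted p differed between tissues. Cxcl16, a membrane-bound chemokine for CXCR6, had 88.53, 89.41 and 68.39 CPM in knockout-labelled and 250.4, 233.3 and 239.8 CPM in control liver libraries and fell (log2 -1.55, SE 0.155, adjusted p = 1.37e-05). Its lung means were 32.13 and 31.62 CPM in knockout-labelled and control libraries (adjusted p = 0.96), and the difference between lung and liver passed (interaction 1.58 on the log2 scale, adjusted p = 0.000826). Cxcl5, a neutrophil chemokine, rose to 2.657 CPM in liver, against 0.1524 CPM in controls (log2 4.06, adjusted p = 0.00584). Pf4, platelet factor 4 and also one of the platelet markers, rose to 50.84 CPM in liver, against 3.742 CPM in controls (log2 3.76, adjusted p = 5.15e-05), and to 27.03 CPM in heart, against 2.9 CPM (log2 3.22, adjusted p = 0.00109). Pf4 in lung had 7.499 and 2.723 CPM in knockout-labelled and control libraries (log2 1.46, adjusted p = 0.0443). That lung call was lost with limma voom, in a fit of lung alone and without 10 of the 16 libraries in turn, which included each lung library other than lung KO replicate 1 (adjusted p up to 0.226). Cxcl15, a chemokine of mouse lung epithelium, fell to 11.38 CPM in lung, against 89.23 CPM in controls (log2 -2.97, adjusted p = 0.00179), and rose to 6.778 CPM in heart, against 0.07255 CPM from 5 counts in controls (log2 6.51, adjusted p = 0.000349). The lung epithelial marker sum moved the same way as Cxcl15 in both tissues, and its part was not tested. Ccl6, a myeloid chemokine, rose to 46.73 CPM in heart, against 1.607 CPM in controls (log2 4.85, adjusted p = 0.00067).

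Of the 19 genes on the list of conventional chemokine receptors and Ccrl2, 15 were tested. Liver had 1 that rose, which was Ccrl2, 1 that fell and 13 that passed in neither direction (median log2 0.75, or 0.47 with Cxcr1 at its bound); in lung 1 fell and 14 did not pass (median -0.10); in heart 3 rose and 12 did not pass (median 2.18, or 0.56 with the 4 genes at 0 counts in 1 group at their bound). Ccrl2, which presents chemerin, rose in liver to 99.25 CPM, against 37.83 CPM in controls (log2 1.39, adjusted p = 0.00226). Ccr7, the signalling receptor for CCL19 and CCL21, fell in liver to 0.7548 CPM, against 2.848 CPM in controls (log2 -1.91, adjusted p = 0.0198), a call lost without liver KO replicate 2 or 3 or liver control replicate 2 (adjusted p up to 0.0792). Cxcr4, which shares CXCL12 with ACKR3, had 5.85, 6.81 and 5.70 CPM in knockout-labelled and 19.09, 20.12 and 31.23 CPM in control lung libraries and fell (log2 -1.94, SE 0.394, adjusted p = 0.00791). It did not pass in liver (12.35 and 6.417 CPM in knockout-labelled and control libraries, adjusted p = 0.108) or heart (30.59 and 33.56 CPM, adjusted p = 0.884). In heart the fractalkine receptor gene Cx3cr1 rose to 1.924 CPM, against 0.1254 CPM in controls (adjusted p = 0.00235), and Ccr1, a receptor gene of myeloid cells, rose to 4.039 CPM, against 0.1109 CPM (adjusted p = 0.0111). The call for Ccr1 was lost without heart control replicate 1 (adjusted p = 0.0836). Without heart control replicate 1 the heart count of 3 was 1, and without liver KO replicate 2 the liver count of 2 was 1. The lung count of 1 was 2 without any 1 of the 3 knockout-labelled liver libraries.

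ACKR3 also takes up adrenomedullin, a vascular peptide hormone, and GPR182 was once listed as its receptor. Of 6 genes of that system tested, 1 rose and 3 fell in liver (median log2 -0.63), 1 rose and 2 fell in lung (median -0.86), and 1 fell in heart (median -0.13). Adm, the hormone, had 101.7, 116.7 and 96.7 CPM in knockout-labelled and 45.25, 49.53 and 58.66 CPM in control liver libraries and rose (log2 1.04, SE 0.212, adjusted p = 0.00339). It rose in lung as well, to 16.23 CPM against 7.222 CPM in controls (log2 1.17, adjusted p = 0.0049), and had 53.59 and 32.97 CPM in knockout-labelled and control heart libraries (adjusted p = 0.0747). Calcrl, its receptor, fell in liver to 484.6 CPM, against 772.7 CPM in controls (log2 -0.67, adjusted p = 0.00658), and in lung to 2118 CPM, against 3541 CPM (log2 -0.74, adjusted p = 0.00835), and had 125.5 and 175.8 CPM in heart (adjusted p = 0.0847). Ramp2, the accessory protein that makes Calcrl an adrenomedullin receptor, fell in all 3 tissues. It fell to 203.4 CPM in liver, against 537.9 CPM in controls (log2 -1.40, adjusted p = 0.000744), to 759.8 CPM in lung, against 1507 CPM (log2 -0.99, adjusted p = 0.0157), and to 127.3 CPM in heart, against 310 CPM (log2 -1.28, adjusted p = 0.0065). Its lung call was lost without lung KO replicate 3 or lung control replicate 2 or 3 (adjusted p up to 0.0664) and its heart call without heart KO replicate 1 or heart control replicate 2 (adjusted p up to 0.0827), which left 0 of the 6 genes past the threshold in heart. Ramp3, a related accessory protein, fell in liver to 2.727 CPM, against 14.34 CPM in controls (log2 -2.40, adjusted p = 0.0022). In heart the count of 1 was 3 with DESeq2 or limma voom and 2 in a fit of heart alone and without lung control replicate 1 or 2.

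Scavenger receptors are taken into the cell through clathrin or caveolae and sorted by Rab proteins, with arrestins and GRK kinases taking part. Of 24 genes for these steps, 1 rose and 6 fell in liver, 1 rose and 3 fell in lung, and 3 fell in heart, with medians of -0.02, 0.05 and -0.01 on the log2 scale. In liver the arrestin genes Arrb1, at 214.8 CPM in knockout-labelled and 582.9 CPM in control libraries (log2 -1.44, adjusted p = 0.000546), and Arrb2, at 249.2 and 446.2 CPM (log2 -0.84, adjusted p = 0.00258), both fell. The caveolin gene Cav2 fell there to 104.1 CPM, against 300.2 CPM in controls (log2 -1.53, adjusted p = 0.000346), and the kinase gene Grk5 rose to 34.66 CPM, against 11.13 CPM (log2 1.64, adjusted p = 8.12e-05). In lung Dnm1, a dynamin best known from neurons, rose to 31.59 CPM, against 4.347 CPM in controls (log2 2.86, adjusted p = 0.000824), and Rab11a, which returns cargo to the surface, fell to 87.78 CPM, against 135.5 CPM (log2 -0.63, adjusted p = 0.00517). Grk2 and Grk3 also fell in lung (log2 -0.38 and -0.98, adjusted p = 0.0302 and 0.0465). The lung call for Grk2 was lost without any 1 lung library other than lung KO replicate 3, with no filter on low counts and in a fit of lung alone (adjusted p up to 0.118). That for Grk3 was lost without any 1 lung or heart library or liver control replicate 1 (adjusted p up to 0.163). In heart Grk2 fell to 157.3 CPM, against 236.1 CPM (log2 -0.59, adjusted p = 0.00448), Cav2 to 316 CPM, against 639.4 CPM (log2 -1.02, adjusted p = 0.0194), and Rab11a to 90.52 CPM, against 129.8 CPM in controls (log2 -0.52, adjusted p = 0.0225). The heart calls for Cav2 and Rab11a were lost without heart KO replicate 1 or either heart control (adjusted p up to 0.203), which left 1 of the 3, and that for Rab11a also with no filter on low counts (adjusted p = 0.054). In lung the count of 4 was 7 without liver KO replicate 3 and 2 without lung KO replicate 2 or any 1 lung control.

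Genes whose levels ran most like each receptor were sought among 10465 genes, as Pearson correlation of log2 CPM over the 16 libraries, which share 3 tissues and 2 genotype labels, so the points are not independent. Closest were Slc40a1 (0.954), Cdk5r1 (0.951) and Tfpi (0.95) for Ackr1, Gng2 (0.959), Abcc3 (0.959) and Lrg1 (0.951) for Ackr2, and Dach1 (0.975), Ablim1 (0.973) and Arhgap28 (0.973) for Ackr3. For Ackr4 they were Shisa5 (0.96), Layn (0.938) and Sfn (0.936), and for Gpr182 Rnf185 (0.989), Fam124a (0.985) and Tmem241 (0.976). On deviations from tissue means, which leave the difference between labels and replicates, the order changed for most. The closest were then Spop (0.893), Clic4 (0.889) and Dhx32 (0.871) for Ackr1, Arhgap45 (0.907), Peli1 (0.907) and Rptor (0.892) for Ackr2, and Birc2 (0.898), Zfp521 (0.891) and Kctd18 (0.89) for Ackr3. For Ackr4 they were Shisa5 (0.959), Layn (0.954) and Pank1 (0.948), and for Gpr182 Fas (0.945), Rab27a (0.928) and Fam117b (0.926). Shisa5 and Layn were closest to Ackr4 by both measures. Among the receptors themselves, Ackr1 and Gpr182 had a correlation of 0.89 over the 16 libraries and 0.55 on deviations from tissue means. Ackr4 and Gpr182 had 0.57 and 0.84, and Ackr3 and Gpr182 had -0.87 and -0.61.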

How the data were processed

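Gene-level read counts of 16 mouse endothelial libraries were used as the authors deposited them, with no normalization. The submitters' processing notes name FastQC 0.11.5, the aligner STAR 2.7.6a and the build GRCm38. Neither the counter, its strand mode nor the gene annotation is given in the sources used here, and per the labels' protocols a stranded or an unstranded kit was used, with no word on which for which library. Positions, exon lengths and overlaps came from GENCODE M21 on GRCm38, and promoter windows from RefSeq on GRCm38.p6.

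Genes were kept by filterByExpr (minimum count 10, minimum total 15), which left 19646. A single edgeR quasi-likelihood model took in all 16 libraries as 6 group means, with TMM factors of 0.916 to 1.07, and p-values were adjusted by Benjamini-Hochberg over all genes tested in each comparison, with a threshold of 0.05. Differences between tissues were tested as interactions in the same fit. The receptor genes, the lists and the tests were chosen with earlier results of these data known, so no p is given for the receptors and none is adjusted over a list. From each list and tissue, up to 4 genes with the smallest adjusted p and at least 1 CPM in the higher group could be named, beside Erg, Fli1, Cxcl12, Cxcl10, Ccl2, Ccl25, Adm and Calcrl; 1 gene that the rule took in is not reported here. Genes at 0 counts in a group were put at 3 counts over the group for a bound. Likeness was sought among named genes with at least 10 CPM in a group, by log2 CPM with a prior count of 2.

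Alternatives were other size factors (RLE and upper quartile), no filter, DESeq2, limma voom, a fit per tissue, replicate blocks, and leaving out each library in turn. The fit was tested on simulated data. R 4.3.3, edgeR 4.0.16, limma 3.58.1, DESeq2 1.42.0 and Python 3.11.15 were used.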

Additional observations from a re-analysis of the deposited data

Results flagged for a closer look

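Several changes differed between tissues by the interaction term of the edgeR fit, with Benjamini-Hochberg adjusted p over all genes. Values are differences of log2 fold changes (knockout-labelled over control). Between lung and liver (lung minus liver) they were -6.01 for Cxcl5 (adjusted p = 0.0149), 1.58 for Cxcl16 (adjusted p = 0.000826), -2.30 for Pf4 (adjusted p = 0.031), -2.88 for Cxcr4 (adjusted p = 0.00684), -1.64 for Ccrl2 (adjusted p = 0.018), 2.51 for Ramp3 (adjusted p = 0.0273), 1 for Arrb2 (adjusted p = 0.0211) and -1.23 for Grk5 (adjusted p = 0.018). Erg itself differed by 0.78 (adjusted p = 0.0214) and Zbtb39, the neighbour of Gpr182, by 0.83 (adjusted p = 0.0414).

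Between heart and liver (heart minus liver) the differences were 4.57 for Ccl6 (adjusted p = 0.00562), 8.46 for Cxcl15 (adjusted p = 0.00474), 1.19 for Cxcl16 (adjusted p = 0.00895), 3.23 for Ccr7 (adjusted p = 0.0307), 1.43 for Arrb1 (adjusted p = 0.0237) and 0.84 for Erg (adjusted p = 0.0226). Between heart and lung (heart minus lung) they were 4.12 for Ccl2 (adjusted p = 0.0314), 4.62 for Ccl6 (adjusted p = 0.00757), 9.47 for Cxcl15 (adjusted p = 0.00032), 3.11 for Ccr7 (adjusted p = 0.0443, and 0.054 with a block for libraries that share a number across tissues), 4.47 for Cx3cr1 (adjusted p = 0.0105) and -2.60 for Dnm1 (adjusted p = 0.0227).

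Among the receptors, Ackr1 was lower in every knockout-labelled liver library and higher in both knockout-labelled heart libraries, a difference of 4.62 on the log2 scale (heart minus liver). Ackr3 did the opposite, with a difference of -1.87. Both receptors were chosen with their levels and changes already known, and the differences were not tested. Cadm3, which shares exonic bases with Ackr1, had a higher CPM than Ackr1 in both heart groups, but per kilobase only in control heart. The part of Cadm3 in the Ackr1 counts was not tested.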

How the results depend on the processing

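In liver and lung, the log2 values of all 5 receptors moved by less than 1 SD between replicates under each of the 24 alternatives. Fits without a library of another tissue kept all libraries of the tissue in question, so they could move its values little. Leaving out 1 library gave -6.16 to -5.07 for Ackr4 in liver, -4.48 to -3.71 for Ackr4 in lung, -2.88 to -2.33 for Ackr1 and -1.54 to -1.21 for Gpr182 in liver. In heart it gave 1.55 to 2.62 for Ackr1, 0.59 to 2.22 for Ackr2 and -0.63 to 0.35 for Gpr182. No called value, and no receptor value whose groups did not overlap, changed sign. Of the 4 receptor values that overlapped between groups and did change sign, Ackr2 in liver ranged over -0.22 to 0.11, Ackr3 in lung over -0.09 to 0.39 and Ackr4 in heart over -0.44 to 0.52 without 1 library, and Gpr182 in heart is given above. Of the list genes, 37 alternative values of uncalled genes did so, such as Cxcl10 in liver, at 0.78 and -0.74 to 1.31.

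Counts of genes past the threshold moved more, and the cause was not tested. With DESeq2, 2514 genes passed in lung, against 1662. Chemokine ligands gave 5 in liver with limma voom and 3 in a fit per tissue, against 8, and 4 in lung with DESeq2, limma voom and a fit per tissue, against 2. The conventional receptor list, Ccrl2 included, gave 2 in lung with upper quartile factors, no filter, DESeq2, limma voom, a fit per tissue and both replicate blocks, against 1. The adrenomedullin list in heart gave 3 with DESeq2 and limma voom and 2 in a fit per tissue, against 1. Leaving out 1 library gave 3 to 9 ligands, 1 to 3 conventional receptors in liver; 917 to 2087 genes, 1 to 4 ligands, 1 to 2 conventional receptors and 2 to 7 trafficking genes in lung; and 1793 to 4243 genes, 10 to 18 ligands, 1 to 4 conventional receptors, 0 to 2 adrenomedullin genes and 1 to 4 trafficking genes in heart. Over single genes, 2151 of 2301 alternative values kept their side of the threshold, 96 lost a call and 54 gained one. The share that kept its side includes fits without a library of another tissue and genes far from the threshold, so it does not measure stability. The 45 calls checked were of genes named beside the rule, of Cadm3, Acad11 and Zbtb39, and of rule-named genes outside the marker lists. Of these 45, 28 were never lost. Calls of marker genes were not checked in this way.

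The replicate numbers did not steadily pair knockout-labelled with control libraries of a tissue. Deviations from group means of same-numbered libraries correlated at -0.051, 0.24 and 0.101 in liver, -0.068, -0.08 and 0.033 in lung and 0.046 in heart by the titles. Different-numbered libraries correlated at -0.23 to 0.15 in liver and -0.072 to 0.119 in lung. The 0.24 in liver was between the male libraries. With 2 libraries a group, heart values can differ only in sign, so heart cannot decide this. With the title number as a replicate block 3888, 1814 and 3976 genes passed in liver, lung and heart, and with the description number 3898, 1823 and 3791. The blocks ended the calls for Grk3 in lung (adjusted p = 0.0612 by title and 0.0604 by description), Grk2 in liver (0.0555 and 0.0556) and, by description, Cxcl12 in heart (0.0837). Between tissues of 1 label, libraries with the same description number correlated at 0.047 to 0.148 in 14 of 14 pairs, 7 of them above 0.1, and libraries with different numbers at -0.148 to 0.065. Deviations within a group sum to 0, and each heart value has a mirror image of opposite sign. These pairs are therefore not separate observations, and values of different numbers lean negative by construction. The male libraries all have the number 2, and whether libraries of 1 number and label came from 1 mouse is not given in the labels. With that number within each label as a replicate block shared by the tissues, a fit chosen after seeing the data, 1494, 1740 and 1463 genes differed for lung minus liver, heart minus liver and heart minus lung, against 1219, 1635 and 1257, and 21 of the 22 tissue differences given above remained. That of Ccr7 between heart and lung was lost (2.77, adjusted p = 0.054). No scaling moved the share of calls that were higher by over 10 points or the median of all genes by over 0.1. Depth limits Ackr1 in heart and Ackr4 where it was low. Heart had 2 libraries a group, so each left-out fit there takes the lone library to vary like the other groups.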
